A study of Mus musculus with 15 samples.

Results

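Mitochondria make most of the ATP of a cell by oxidative phosphorylation. Complex I (NADH dehydrogenase) and complex II (succinate dehydrogenase) pass electrons to ubiquinone, complex III (cytochrome bc1) passes them on to cytochrome c, and complex IV (cytochrome c oxidase) hands them to oxygen, while complex V (ATP synthase) uses the resulting proton gradient. Most subunits are encoded in the nucleus, made in the cytosol and imported, and a small set is encoded in mitochondrial DNA. In the adrenal cortex the same organelles hold the side-chain cleavage enzyme and the 11-beta-hydroxylase of steroid synthesis, which take their electrons from NADPH through ferredoxin.

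The genes described here are the nuclear genes of oxidative phosphorylation, taken by symbol: all that start with Nduf, Uqcr, Atp5, Cox4i, Cox5, Cox6, Cox7 or Cox8, and Sdha, Sdhb, Sdhc, Sdhd and Cyc1. They are 88 of the 21439 genes measured. Complex I has 32 of them, 6 core subunits and 26 accessory ones, complex II 4, complex III 8, complex IV 18 and complex V 17. The 18 of complex IV include Ndufa4, a subunit of complex IV despite its name, and 8 tissue-restricted isoforms or paralogues. A further 9 are no structural subunits: 8 assembly factors of complex I (the Ndufaf genes) and Cox7a2l, which links complexes III and IV. Of the 88 genes 81 lay above the median level of all genes, 2.44 on the log2 scale, in at least 1 group, and the other 7 (Atp5g1, Atp5j2, Atp5o, Cox6a2, Cox7b2, Cox8c and Ndufs5) lay under it in all 4 groups and are called at the floor, where a fall could hardly be seen.

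RNA came from whole adrenal glands of wild type C57BL/6J male mice, 1 sample per array, on 15 arrays. The 4 control arrays are from mice taken before dexamethasone, a synthetic glucocorticoid that lowers pituitary ACTH and with it the drive on the zona fasciculata. The 3 withdrawal arrays are from mice that had drunk water with the drug for 14 days and were taken as it was stopped. A further 4 arrays are from mice 3 days (day 3) and 4 from mice 7 days (day 7) after it was stopped. The label age is 6 weeks for all of them, and since controls were taken before treatment, drug, recovery and elapsed time cannot be told apart in any comparison with control. A whole gland holds the cortical zones, the medulla, vessels and immune cells, and fewer cells of a type and less RNA per cell cannot be told apart in it. Values are log2 array levels, and a difference of 1 is a doubling.

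The labelled tissue was borne out by its markers, with all 8 zona fasciculata and all 8 zona glomerulosa marker genes above the median level, while the 6 kidney markers were at the floor. Array medians ran from 1.55 to 1.64. The mean level of the 8 fasciculata markers (Cyp21a1, Mrap and Scarb1 among them) was 9.57 to 9.63 on the control arrays, 8.52 to 8.66 at withdrawal, 9.49 to 9.59 on day 3 and 9.40 to 9.50 on day 7. The mean of 10 macrophage markers was 4.72 to 4.96 in control, 6.39 to 6.91 at withdrawal, 5.75 to 6.33 on day 3 and 5.18 to 6.26 on day 7. The means of 8 endothelial markers ran from 6.66 to 6.85 in control and from 6.33 to 6.43 at withdrawal, and those of 8 glomerulosa markers from 7.03 to 7.13 and from 7.77 to 7.92. The 9 chromaffin cell markers of the medulla had means of 8.39 to 8.81 in control and 8.96 to 9.04 at withdrawal. These groups of markers move with the comparisons below, and their part in the results was not tested. On 3 arrays (control replicates 1 and 4 and day 3 replicate 3) Ucp1 and Cidea, markers of brown fat, a tissue rich in mitochondria, were both above 3.44, with Ucp1 at 4.28, 5.38 and 4.79. Control replicate 2 had Ucp1 above it too, at 3.58, with Cidea at 2.22. It stays in the fits without the 3 arrays, which are therefore not free of raised Ucp1. Counts of called oxidative phosphorylation genes are given with and without these 3 arrays. So are the complex medians and most list medians of withdrawal against control, and only some medians of the other comparisons.

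At the end of dexamethasone the levels of most oxidative phosphorylation genes were a little lower than in control. The group mean was lower for 75 of the 88 genes (85.2%), against 51.3% of all genes and 45.0% of those above the median level, and the median gene differed by -0.12 log2, a change of -8.14%, against -0.01 for all genes. Complex III had the Rieske protein gene Uqcrfs1 and complex I the core gene Ndufs8 past the threshold with lower levels, and 1 gene, the paralogue Ndufa4l2, rose. These are 3 of 88 genes (limma, Benjamini-Hochberg adjusted over all genes, threshold 0.05), while 4.3% of all genes were called in this comparison, 1.81% lower and 2.49% higher, and 7.8% of the genes above the median level. The share of called genes is thus near the background. The groups did not overlap, with withdrawal below control, for 22 of the 88 genes, against 6.94% of all genes and 9.81% of those above the median level. They did not overlap in the other direction for 3 genes, against 8.15% of all genes.

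Uqcrfs1, which carries the Rieske iron-sulphur cluster that takes electrons from ubiquinol in complex III (probe set 17291570), read 6.24, 6.11, 6.21 and 6.27 on the control arrays and 5.75, 5.75 and 5.70 at withdrawal. Day 3 arrays read 6.05, 6.21, 6.19 and 6.10, and day 7 arrays 6.27, 6.27, 6.06 and 6.15. All 3 withdrawal arrays lie below the 12 others, and control, day 3 and day 7 overlap. The mean fell from 6.21 ± 0.07 (SD, n = 4) to 5.73 ± 0.03 (n = 3), a difference of -0.48 ± 0.09 (standard error), or 1.39-fold (limma, adjusted p = 0.00508). Leaving out any of the 15 arrays kept the call.

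Ndufs8, an iron-sulphur subunit in the arm of complex I that leads electrons to ubiquinone (probe set 17361032), read 9.36, 9.17, 9.32 and 9.34 in control and 8.94, 8.81 and 8.89 at withdrawal. It read 9.28, 9.48, 9.40 and 9.37 on day 3 and 9.34, 9.22, 9.31 and 9.35 on day 7. Again the withdrawal arrays were the lowest, with no overlap with any other group. Its difference was -0.42 ± 0.09, or 1.34-fold (limma, adjusted p = 0.0109). Without withdrawal replicate 2 the adjusted p was 0.0589.

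**Figure D1:**
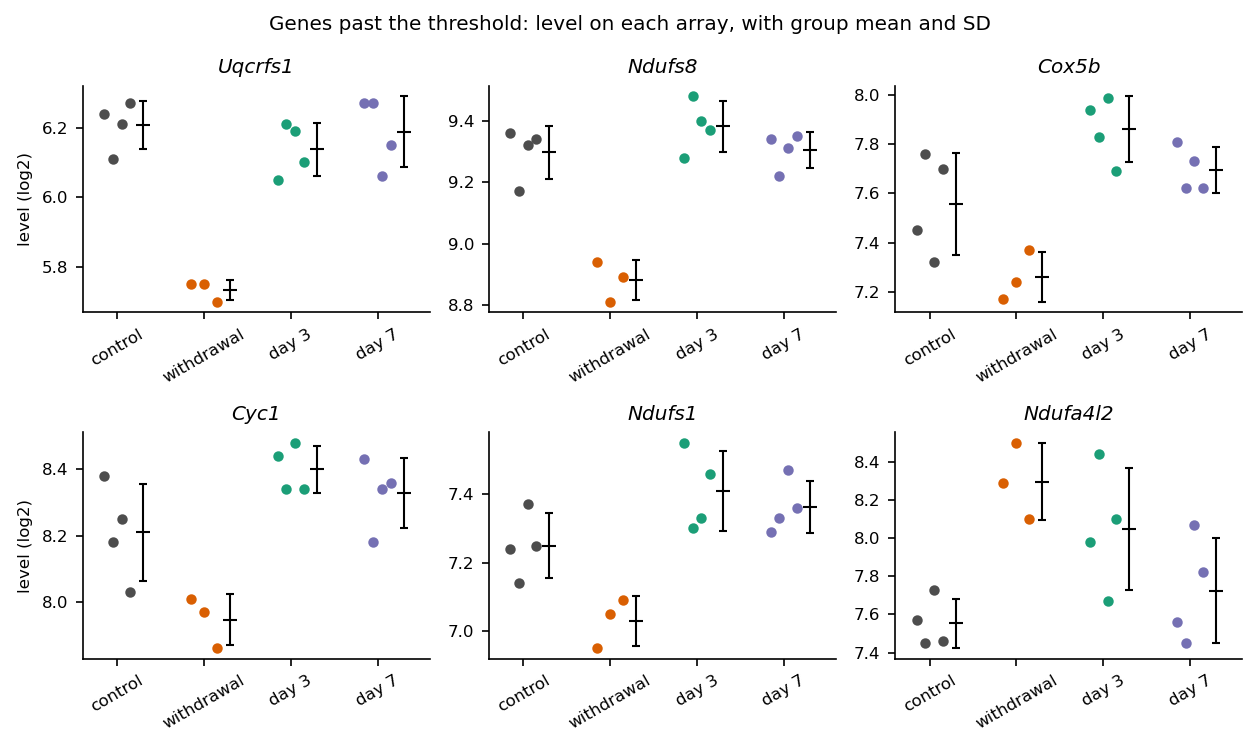
Level (log2) of the 6 genes past the threshold in any comparison, on each of the 15 arrays, by group, with a dot per array and the group mean and SD beside the dots. Uqcrfs1 and Ndufs8 have all 3 withdrawal arrays below the 12 others, and Ndufa4l2 has them above all 4 controls.

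The promoters of these 2 genes are printed because they fell and came back, and that of Atp5h, the d subunit of the ATP synthase stalk, because it holds a match to NRF1 and to GABP, factors known to drive nuclear genes of the respiratory chain. Atp5h was chosen after the search was seen. The sequences are RefSeq's, build GRCm38.p6, 250 bases up to the base before the gene's start on the gene's strand, and capitals mark motif matches. They lie at chr13:30545317-30545566 (Uqcrfs1, minus strand), chr19:3912775-3913024 (Ndufs8, minus strand) and chr11:115419920-115420169 (Atp5h, minus strand).
Uqcrfs1: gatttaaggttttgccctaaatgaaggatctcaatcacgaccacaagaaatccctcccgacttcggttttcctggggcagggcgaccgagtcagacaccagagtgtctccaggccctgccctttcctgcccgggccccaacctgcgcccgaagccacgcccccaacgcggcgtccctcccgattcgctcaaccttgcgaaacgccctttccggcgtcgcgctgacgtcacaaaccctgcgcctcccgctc
Ndufs8: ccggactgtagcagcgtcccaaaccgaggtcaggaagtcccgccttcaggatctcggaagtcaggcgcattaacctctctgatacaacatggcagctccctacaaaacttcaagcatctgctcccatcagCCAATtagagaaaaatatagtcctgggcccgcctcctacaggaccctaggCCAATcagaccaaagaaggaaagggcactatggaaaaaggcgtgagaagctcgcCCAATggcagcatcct
Atp5h: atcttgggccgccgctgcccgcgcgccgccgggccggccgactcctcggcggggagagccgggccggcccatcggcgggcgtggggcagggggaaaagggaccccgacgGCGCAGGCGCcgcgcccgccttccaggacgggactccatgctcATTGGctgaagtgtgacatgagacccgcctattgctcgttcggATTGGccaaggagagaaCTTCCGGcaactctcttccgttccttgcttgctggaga
Searched on both strands, the Uqcrfs1 window held none of the motifs, and Ndufs8 held 3 CCAAT boxes, the letters bound by NF-Y, beginning 120, 70 and 16 bases before the start. Atp5h held the NRF1 letters, the GABP letters on the other strand and 2 CCAAT boxes on the other strand. The NRF1 letters were GCGCA and GCGC with any base between them, and 12 of the 72 members with a promoter in the table had them (16.7%), against 4.23% of 27025 genes. The GABP letters were CCGGAAG, found for 14 members (19.4%) against 7.83% of all genes. For comparison, the NRF1 letters were in 14.5% of the mitochondrial and 1.56% of the cytosolic ribosomal protein genes, and the GABP letters in 26.1% and 29.7%. CAAGGTCA, letters bound by estrogen-related receptors and of the adrenal regulator SF-1, was in 3 members (4.17%, against 1.51%), the YY1 letters AAGATGGC in 1 (1.39%, against 1.83%) and CCAAT in 30 (41.7%, against 37.5%). None of these motifs overlaps another in the sequences printed. A match describes the letters of a window and shows no binding.

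In complex I 28 of 32 genes had lower means at withdrawal, with a median of -0.10. Of the 32, 9 did not overlap with control (28.1%, against 6.94% of all genes and 9.81% of those above the median level). Beside Ndufs8 the core genes Ndufs1, Ndufs3 and Ndufv1 differed by -0.22 (limma, adjusted p = 0.232), -0.24 (0.19) and -0.13 (0.494), and Ndufv2 and Ndufs7 by -0.05 and -0.03. Among the accessory genes Ndufa3, Ndufb5 and Ndufs4 had differences of -0.24, -0.22 and -0.23, and Ndufa5, Ndufab1, Ndufb7 and Ndufb10 lay between -0.03 and 0.00. Only Ndufa12, Ndufv3, Ndufs5 and Ndufb7 did not have a lower mean, and Ndufs5 is at the floor.

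All 4 complex II genes had lower means, by -0.09 to -0.31 and a median of -0.17, and 0 of 4 passed (limma, 1 of 4 at an unadjusted p under 0.05). The nearest was Sdhb, the iron-sulphur subunit, at 7.90, 7.77, 7.85 and 8.06 in control and 7.67, 7.54 and 7.56 at withdrawal (limma, adjusted p = 0.0714). Its groups did not overlap. Sdha, the flavoprotein that oxidises succinate, differed by -0.18 ± 0.11 (limma, adjusted p = 0.431).

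All 8 complex III genes had lower means, with a median of -0.16, and 5 did not overlap with control (62.5%, against 6.94% of all genes). After Uqcrfs1 came Cyc1, the haem protein that reduces cytochrome c, at -0.27 ± 0.10 (limma, adjusted p = 0.169), Uqcrq at -0.235 and Uqcr11 at -0.20. The core protein gene Uqcrc1 differed least, by -0.03 ± 0.10 (limma, adjusted p = 0.924).

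Complex V had 16 of 17 genes with lower means, a median of -0.105 and 0 called (limma, 2 of 17 at an unadjusted p under 0.05). The catalytic genes Atp5a1 and Atp5b differed by -0.20 ± 0.09 and -0.16 ± 0.09 (limma, adjusted p = 0.249 and 0.387), and Atp5h by -0.28. Of the 3 genes for the c ring Atp5g2 differed by -0.02, Atp5g3 by -0.04 and Atp5g1, at the floor, by -0.38 ± 0.21. The 9 assembly and linking genes had a median of -0.21, 8 of them lower, and 0 called (limma, 1 of 9 at an unadjusted p under 0.05), with Ndufaf6 at -0.39 ± 0.19 and Ndufaf1 at -0.36.

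Complex IV was split. Its 18 genes had a median of -0.02, with 11 lower and 7 higher. The 10 widely expressed subunits had a median of -0.145, with 9 lower: Cox5b differed by -0.29 ± 0.12 (limma, adjusted p = 0.204), Cox5a by -0.22, Cox8a by -0.18 and Cox4i1 by -0.15 ± 0.08, and Cox7b by 0.01. The tissue-restricted genes held the 2 largest positive differences of all 88, those of Ndufa4l2 and Cox8b, and also the largest negative one, that of Cox6a2 (-0.49 ± 0.28, limma, adjusted p = 0.414), known from heart and muscle and here at the floor. Whether complex IV differed from the other complexes was not tested.

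**Figure D2:**
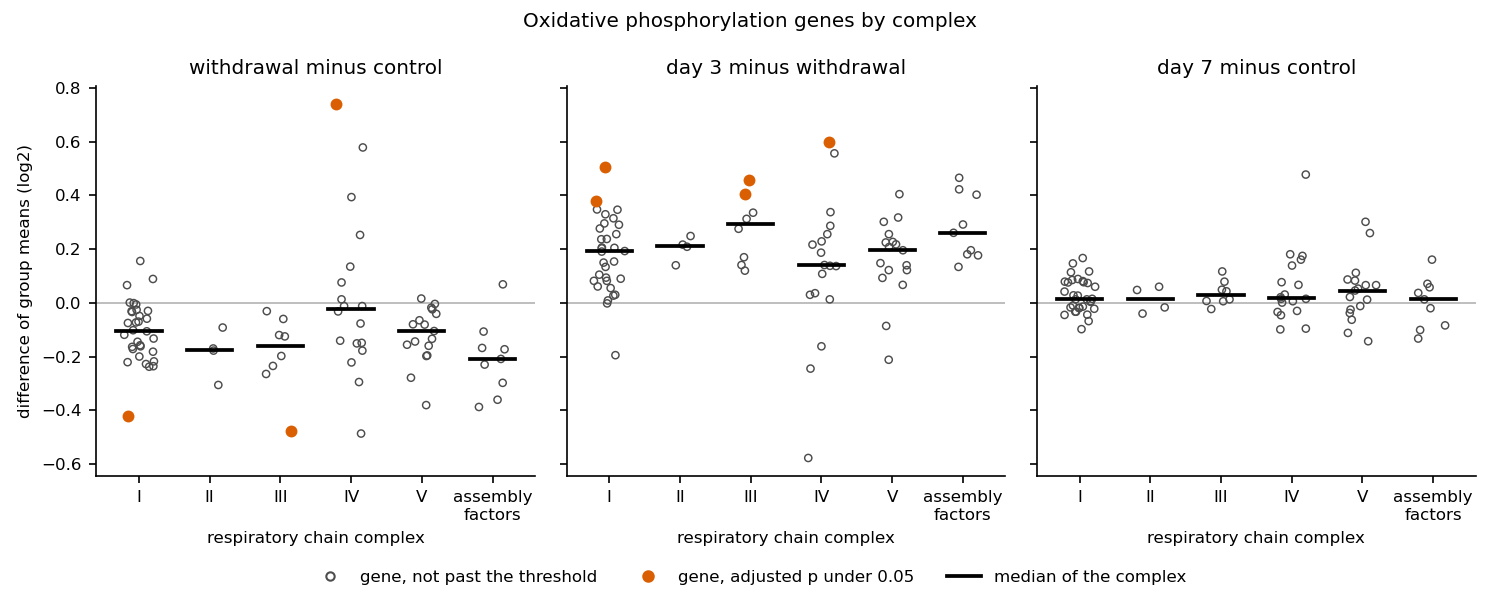
Difference of group means (log2) of each oxidative phosphorylation gene, by complex, for withdrawal minus control, day 3 minus withdrawal and day 7 minus control, with filled dots for genes at an adjusted p under 0.05 and a bar at the median. Medians lie below 0 in the first panel, between 0.14 and 0.29 in the second and near 0 in the third.

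Ndufa4l2, a paralogue of Ndufa4 known as a target of hypoxia-inducible factor (probe set 17238054), read 7.57, 7.45, 7.73 and 7.46 in control and 8.29, 8.50 and 8.10 at withdrawal. On day 3 it read 7.98, 8.44, 7.67 and 8.10, and on day 7 7.56, 7.45, 8.07 and 7.82. Every withdrawal array was above every control array, and the day 3 arrays overlap with both groups. It rose by 0.74 ± 0.18, or 1.67-fold (limma, adjusted p = 0.0272). The call was lost in 5 of the 15 fits without 1 array, with an adjusted p of up to 0.126, and without the 3 arrays high in Ucp1 and Cidea the difference was 0.71 (limma, adjusted p = 0.128).

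Cox8b, the isoform of subunit VIII known from heart, skeletal muscle and brown fat (probe set 17497704), read 9.00, 8.19, 8.82 and 8.97 in control and 9.35, 9.21 and 9.41 at withdrawal. Its day 3 arrays read 9.60, 9.20, 9.35 and 9.29 and its day 7 arrays 8.82, 8.72, 8.54 and 8.51. Withdrawal and day 3 were above control and day 7 with no overlap, and control replicate 2 was the lowest array. Withdrawal differed from control by 0.58 ± 0.17 (limma, adjusted p = 0.0681) and day 7 from withdrawal by -0.68 ± 0.17 (0.0555), neither past the threshold. Day 3 differed from control by 0.61 ± 0.15 (limma, adjusted p = 0.138) and day 7 from day 3 by -0.71 ± 0.15 (0.297). With an intensity trend in the prior the first pair had adjusted p of 0.0381 and 0.0261, and without control replicate 2 they were 0.0988 and 0.0087. Without the 3 arrays high in Ucp1 and Cidea the pair was 0.82 (limma, adjusted p = 0.0565) and -0.68 (0.0638).

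Markers of muscle and brown fat, tissues that Cox8b is known from, were mixed. Of 10 striated muscle markers 8 were at the floor (Ckm, Mb and Ckmt2 among them), and the mean of the 10 lay between 1.38 and 1.73 on all arrays. At withdrawal 8 of the 10 had lower means than in control and 2 higher, with a median of -0.10. One of the 2, the fast troponin gene Tnni2, rose from a mean of 1.95 in control to 2.83 at withdrawal (limma, adjusted p = 0.0351). Of 7 brown fat markers 4 were at the floor, and at withdrawal 3 had higher means than in control and 4 lower. Fabp3 differed by 0.57 ± 0.26 (limma, adjusted p = 0.265), and Ppargc1a, at the floor, rose by 0.60 ± 0.14 (0.0229). Ucp1 and Cidea differed by -2.16 ± 0.81 and -1.07 ± 0.59 without passing. The part of these tissues in the Cox8b values was not tested. The other restricted isoforms had no called difference. Cox4i2, known from lung and from vessel wall cells, had all withdrawal arrays (3.58 to 3.89) above control (3.07 to 3.47), a difference of 0.39 ± 0.19 (limma, adjusted p = 0.312). Cox6b2, known from testis, differed by 0.25 ± 0.14 (limma, adjusted p = 0.372) and Cox7a1, the heart and muscle isoform, by 0.08 ± 0.24 (0.922). Cox6a2, Cox7b2 and Cox8c were at the floor. The general partners Cox8a and Cox7a2 differed by -0.18 ± 0.10 and -0.08 ± 0.09.

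**Figure D3:**
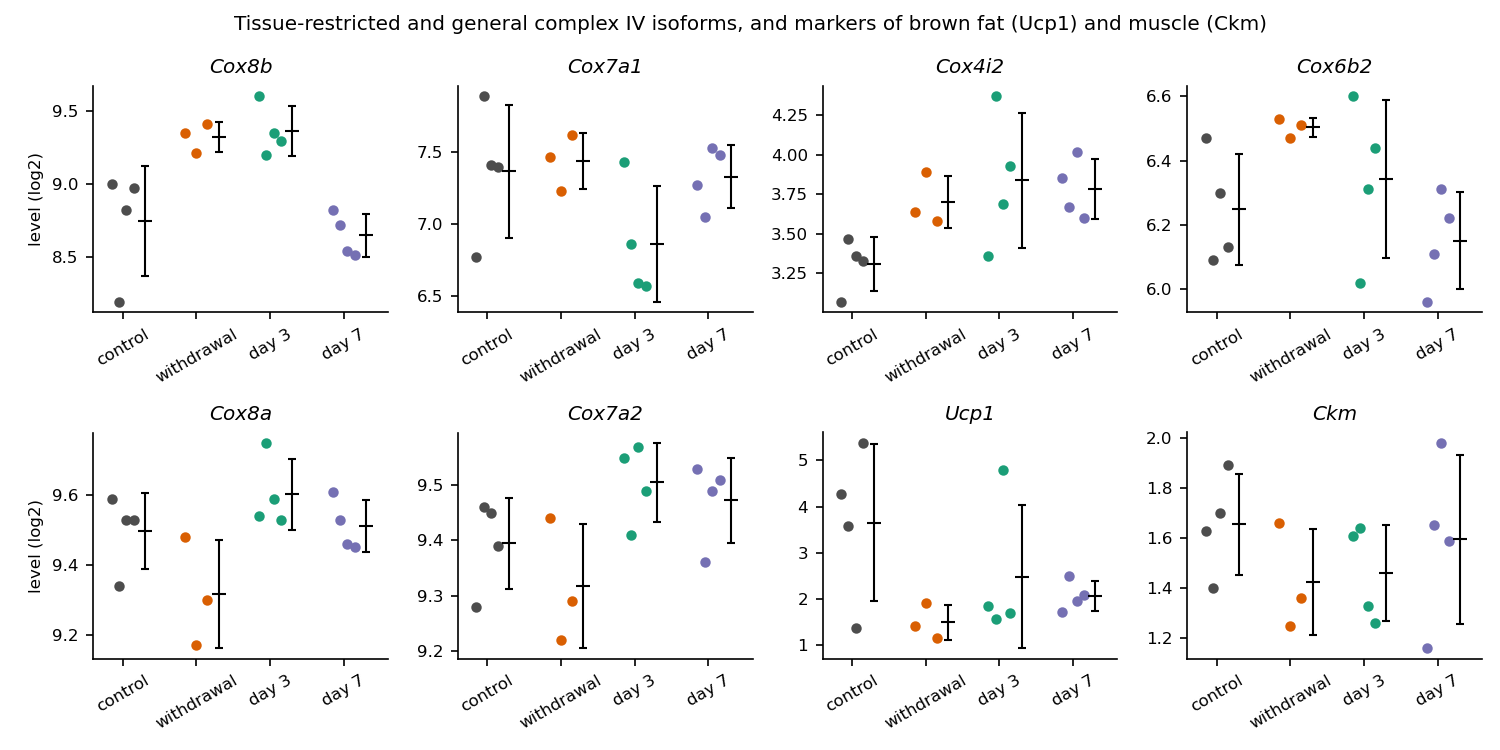
Level (log2) on each array of the tissue-restricted genes Cox8b, Cox7a1, Cox4i2 and Cox6b2, the general genes Cox8a and Cox7a2, and the markers Ucp1 (brown fat) and Ckm (muscle), with the group mean and SD beside the dots. Cox8b is high on all withdrawal and day 3 arrays, and Ckm is at the floor on all arrays. Ucp1 is at 3.58 to 5.38 on control replicates 1, 2 and 4 and day 3 replicate 3, and at 1.16 to 2.51 on all other arrays. At withdrawal 8 of 10 muscle markers and 4 of 7 brown fat markers had lower means than in control. The muscle marker Tnni2 and the brown fat marker Ppargc1a, at the floor, rose and are not plotted.

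The calls at withdrawal depended on which arrays were used. Without the 3 arrays high in Ucp1 and Cidea, which leaves 2 controls, 0 genes passed (limma, Uqcrfs1 at -0.43, adjusted p = 0.0801), and the medians of complexes I to V were -0.09, -0.14, -0.15, -0.09 and -0.12. Centring each array on its own median shifted all genes by -0.11 at the median, gave 1 higher and 11 lower calls, and left 82 of 88 means lower against 70.7% of all genes. A further quantile normalization gave 67 of 88.

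Between withdrawal and day 3 most of the group means moved up, and genes of complexes I, III and IV passed the test. The mean was higher on day 3 for 81 of the 88 genes, against 48.8% of all genes and 46.3% of those above the median level, and 5 rose: Ndufs8 and Ndufs1 of complex I, Uqcrfs1 and Cyc1 of complex III and Cox5b of complex IV. No gene passed with a lower level, and 2.25% of all genes were called in either direction, 1.37% higher, and 4.12% of those above the median level. The groups did not overlap for 34 genes (38.6%), all higher on day 3, against 6.39% of all genes and 9.81% of those above the median level. In the other direction 5.73% of all genes did not overlap. The withdrawal arrays also enter the comparison with control, so the fall and the rise share those 3 arrays and are not independent.

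Cox5b, the zinc-binding subunit of complex IV (probe set 17290965), read 7.17, 7.24 and 7.37 at withdrawal and 7.94, 7.83, 7.99 and 7.69 on day 3. Control arrays read 7.45, 7.76, 7.32 and 7.70 and day 7 arrays 7.81, 7.62, 7.73 and 7.62. Day 3 lay above withdrawal with no overlap, and the 4 controls spread across the gap between them. The rise was 0.60 ± 0.12, or 1.52-fold (limma, adjusted p = 0.0145). A second, dimmer probe set of Cox5b differed by 0.44 ± 0.17 in the same direction without passing (limma, adjusted p = 0.288).

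Cyc1 (probe set 17312396) read 8.01, 7.97 and 7.86 at withdrawal and 8.44, 8.34, 8.48 and 8.34 on day 3, against 8.38, 8.18, 8.25 and 8.03 in control and 8.43, 8.18, 8.34 and 8.36 on day 7. All withdrawal arrays were below all others. It rose by 0.46 ± 0.10 (limma, adjusted p = 0.0245). Ndufs1, the iron-sulphur subunit of the NADH-oxidising module (probe set 17223685), read 6.95, 7.05 and 7.09 at withdrawal and 7.55, 7.30, 7.33 and 7.46 on day 3. Its control arrays read 7.24, 7.14, 7.37 and 7.25, and its day 7 arrays 7.29, 7.33, 7.47 and 7.36, so that withdrawal was again the lowest group. It rose by 0.38 ± 0.09 (limma, adjusted p = 0.0427). Ndufs8 rose by 0.51 ± 0.09 (limma, adjusted p = 0.00535) and Uqcrfs1 by 0.40 ± 0.09 (0.0217).

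By complex, the median rise in level from withdrawal to day 3 was 0.19 for complex I, 0.21 for II, 0.29 for III, 0.14 for IV and 0.20 for V, and 0.26 for the assembly genes. In complex III 7 of 8 genes did not overlap with withdrawal (87.5%, against 6.39% of all genes and 9.81% of those above the median level). Uqcrq at 0.34 (limma, adjusted p = 0.0681) and Uqcr11 at 0.31 (0.0835) came after the 2 called. In complex I 15 of 32 did not overlap (46.9%), among them Ndufb5 at 0.29 (limma, adjusted p = 0.0738) and Ndufa1 at 0.33 (0.0757). All 10 widely expressed genes of complex IV had higher means, with a median of 0.22, and 5 of 17 genes of complex V did not overlap (29.4%). Complex II had differences of 0.14 to 0.25 and 0 called (limma, 1 of 4 at an unadjusted p under 0.05). The 7 genes with lower means on day 3 were the floor genes Ndufs5, Atp5j2 and Atp5o, Ndufb10 at 0.00, and the isoform genes Cox7a1 (-0.58 ± 0.24, limma, adjusted p = 0.283), Ndufa4l2 (-0.24 ± 0.18) and Cox6b2 (-0.16 ± 0.14).

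Cox7a1 differed in its spread between arrays: the control arrays read 6.77, 7.89, 7.41 and 7.40, withdrawal 7.47, 7.23 and 7.62, day 3 7.43, 6.86, 6.59 and 6.57 and day 7 7.27, 7.05, 7.53 and 7.48. The groups overlap throughout, with day 3 replicates 2 to 4 among the lowest arrays.

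The number of genes past the threshold on day 3 depended on how the spread was estimated. It was 11 with an intensity trend in the prior and 0 when only the 7 arrays of the 2 groups were fitted, and without the 3 arrays high in Ucp1 and Cidea only Ndufs8 passed (limma, adjusted p = 0.0297). Ndufs1 passed in 4, Cyc1 and Uqcrfs1 in 10, Cox5b in 13 and Ndufs8 in 15 of the 15 fits without 1 array, and Cox5b missed without withdrawal replicate 1 or 2.

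On day 7 the levels were still above withdrawal, with higher means for 78 of 88 genes against 51.1% of all genes and 27 genes without overlap (30.7%, against 6.46% of all genes and 9.84% of those above the median level). A further 3 genes did not overlap with lower levels on day 7, against 5.89% of all genes. Ndufs8 rose by 0.43 ± 0.09 (limma, adjusted p = 0.0183) and Uqcrfs1 by 0.45 ± 0.09 (0.0122), 2 of 88 genes, with 1.88% of all genes called. Median differences were 0.14, 0.23, 0.19, 0.12 and 0.10 for complexes I to V. Cox5b at 0.43, Cyc1 at 0.38 and Ndufs1 at 0.33 did not pass (limma, adjusted p from 0.0644 to 0.0841). Without the 3 arrays high in Ucp1 and Cidea Ndufs8 had an adjusted p of 0.0506, and Uqcrfs1 still passed (limma, adjusted p = 0.0363).

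Against control, neither recovery time had a called gene of oxidative phosphorylation. On day 3 0 of 88 passed (limma, 10 at an unadjusted p under 0.05, 9 of them higher), with 0.131% of all genes called, and 67 means were higher, against 49.2% of all genes. Median differences were 0.08, 0.04, 0.11, 0.11 and 0.06 for complexes I to V, and with each array centred on its median those of complexes II and V turned to -0.03 and -0.01. On day 7 0 of 88 passed (limma, 2 at an unadjusted p under 0.05), with 0.0187% of all genes called, and 58 means were higher, against 51.5%. The medians were 0.01, 0.015, 0.03, 0.02 and 0.05, and with the centring those of complexes I to IV turned to -0.02, -0.02, -0.01 and -0.02. The 95% interval of the difference of day 7 from control lay within ±0.5 log2 for 80 of the 88 genes and within ±0.25 for 40, without adjustment for the number of genes. Day 7 and day 3 differed for 0 of 88 genes (limma, 5 at an unadjusted p under 0.05, 4 of them lower on day 7), with 0.0% of all genes called.

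Ranked by group mean, withdrawal was the lowest of the 4 groups for 70 of the 88 genes (79.5%, against 31.3% of all genes), including all 4 of complex II and all 8 of complex III, and day 3 was the highest for 54 (61.4%). The level of a complex on an array, taken as the median deviation of its genes from their means over 15 arrays, put complex III at -0.175, -0.22 and -0.142 on the withdrawal arrays and at -0.034 to 0.073 in control. Complex V was at -0.095, -0.088 and -0.097 at withdrawal and at -0.014 to 0.029 in control. Complex I was at -0.072, -0.157 and -0.138 at withdrawal, and its lowest control array, replicate 2, was at -0.067. Complex IV, with its isoforms, overlapped, at -0.047 to -0.06 at withdrawal and -0.084 to -0.002 in control, and without the isoforms it did not, at -0.112 to -0.205 and -0.022 to 0.007.

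**Figure D4:**
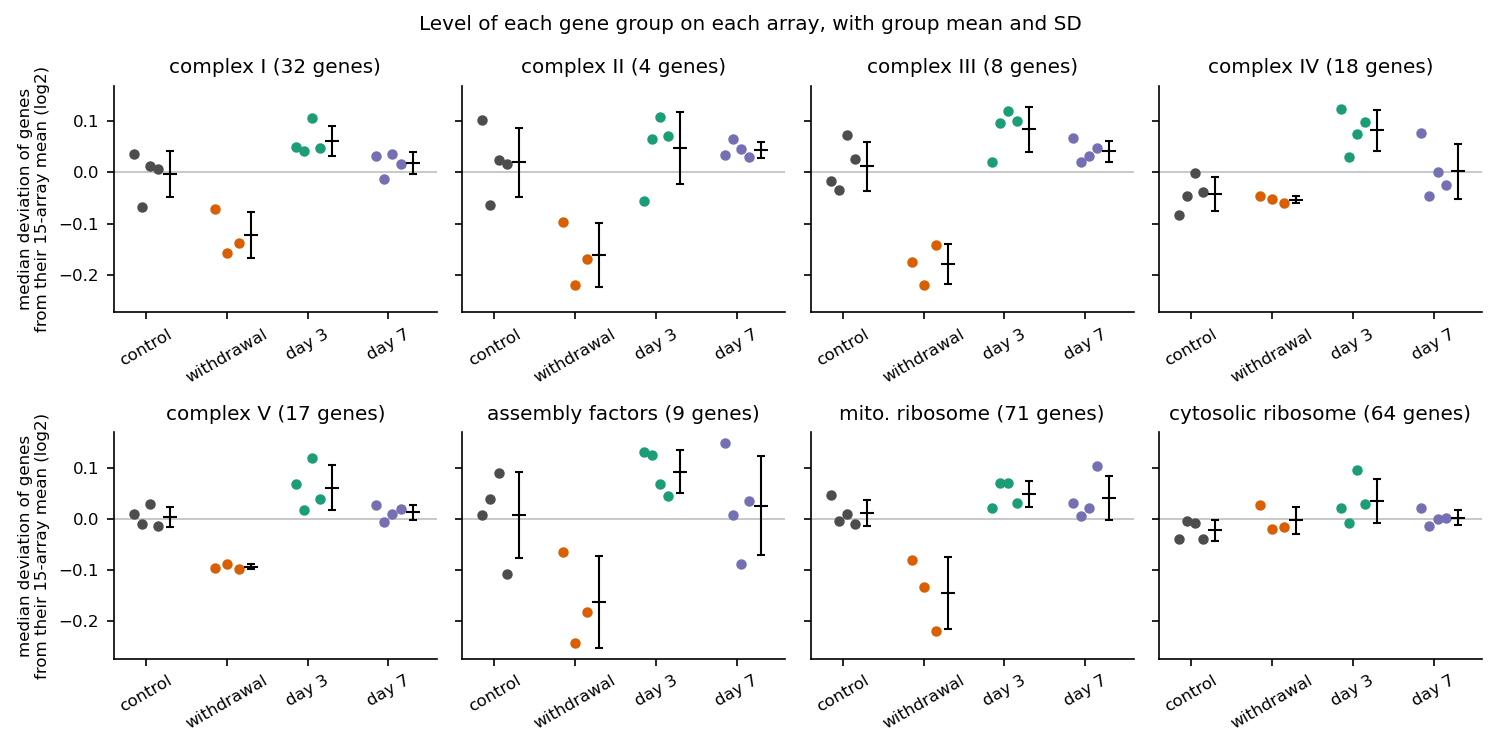
Level of each complex, of the assembly genes and of the mitochondrial and cytosolic ribosomal protein genes on each array, as the median deviation (log2) of their genes from the means over 15 arrays, with the group mean and SD beside the dots. The 3 withdrawal arrays are the lowest for complexes I, II, III and V and for the mitochondrial ribosome. They are not for complex IV, the assembly genes or the cytosolic ribosome.

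Most other lists of mitochondrial genes had medians of the same sign as the oxidative phosphorylation genes. As background for the counts of called genes below, 1.81% of all genes were called lower and 2.49% higher at withdrawal against control. On day 3 against withdrawal 1.37% were called higher. Of the 10719 genes above the median level 365 were called lower at withdrawal and 275 higher on day 3. Of 71 mitochondrial ribosomal protein genes 62 had lower means at withdrawal, with a median of -0.18. A share near the background fell, 2 of 71: Mrpl20 by 0.60 ± 0.10 (limma, adjusted p = 0.00342) and Mrps34 by 0.41 ± 0.09 (0.0149). On day 3 7 of the 71 rose from withdrawal, with a median of 0.22, Mrps27 by 0.70 ± 0.14 and Mrpl20 by 0.54 ± 0.10. The 64 cytosolic ribosomal protein genes had medians of 0.01 and 0.05 in these comparisons, with 0 called in either (limma, 7 and 8 at an unadjusted p under 0.05). Their mean level was 7.18 to 7.28 in control and 7.14 to 7.29 at withdrawal. The 10 mitochondrially encoded subunit genes on the arrays had lower means at withdrawal in 10 of 10 cases, with a median of -0.12, and higher ones on day 3, with a median of 0.22, and 0 passed in either (limma, 1 and 4 at an unadjusted p under 0.05). Their mean levels overlapped, at 9.95 to 10.08 in control and 9.73 to 10.12 at withdrawal.

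Among 36 further assembly factors 32 were lower at withdrawal, with a median of -0.18, and 3 fell: Uqcc3, needed for complex III, by 0.51 ± 0.10, Cox15, which makes haem A, by 0.51 ± 0.13 and Coa5 by 0.33 ± 0.09 (limma, adjusted p = 0.00896, 0.0367 and 0.0465). On day 3 Cox14, a factor of complex IV, rose by 0.50 ± 0.08 and Tmem70, a factor of ATP synthase, by 0.53 ± 0.12. In the list of cytochrome c, coenzyme Q and electron entry, Etfdh, which feeds electrons from fatty acid oxidation, fell by 0.47 ± 0.11 at withdrawal (limma, adjusted p = 0.0298), 1 of 15. Cycs, cytochrome c itself, rose by 0.57 ± 0.11 on day 3 (limma, adjusted p = 0.0155). Among 23 import and chaperone genes 3 fell at withdrawal, the protease Lonp1 by 0.80 ± 0.09 and the chaperones Hspe1 by 0.47 ± 0.12 and Hspa9 by 0.32 ± 0.08.

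The citric acid cycle and pyruvate dehydrogenase list had 17 of 18 means lower at withdrawal, with a median of -0.23 and 4 falling. Pyruvate carboxylase (Pcx) read a mean of 6.70 in control and 5.16 at withdrawal, a fall of 1.55 ± 0.12 (limma, adjusted p = 1.1e-05), and Pdhx, a component of the pyruvate dehydrogenase complex, fell by 0.89 ± 0.11 (0.000369). Pdhb fell by 0.34 ± 0.09 and Dlst by 0.35 ± 0.09. On day 3 Pcx rose by 1.39 ± 0.12, Pdhx by 0.93 ± 0.11, Dld by 0.39 ± 0.08 and Pdhb by 0.38 ± 0.09. The steroidogenic proteins of the same organelle had a median of -0.58 over 6 genes, and 5 fell at withdrawal, with Fdx1, the ferredoxin, at -0.71 ± 0.12, while Cyp11b2, the aldosterone synthase of the zona glomerulosa, rose by 0.91 ± 0.16.

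Glycolysis had a median of 0.02 over 13 genes, and 1 rose, the lactate dehydrogenase subunit Ldhb, by 1.20 ± 0.12 at withdrawal (limma, adjusted p = 6.4e-05), which fell by 0.99 ± 0.12 on day 3. The 17 regulators of mitochondrial biogenesis had a median of 0.00, and 1 rose, the coactivator Ppargc1a, by 0.60 ± 0.14 from a level of 1.34 at the floor (limma, adjusted p = 0.0229). The 6 carrier, uncoupling protein and ATPase inhibitor genes had a median of 0.03, with 3 lower, 3 higher and 0 called (limma, 1 at an unadjusted p under 0.05).

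Without the 3 arrays high in Ucp1 and Cidea fewer genes of these lists passed at withdrawal. Pcx, Pdhx, Lonp1, Mrpl20, Ldhb, Fdx1, Cyp11b1 and Cyp11b2 still did, and 0 of 36 assembly factors, 0 of 15 cytochrome c and coenzyme Q genes and 0 of 17 regulators did (limma). The medians were -0.17 for the mitochondrial ribosome, -0.22 for the assembly factors, -0.22 for the citric acid cycle, -0.13 for import and -0.17 for the mitochondrially encoded genes, and -0.07 for cytochrome c and coenzyme Q, where it had been -0.16. Those of the regulators, carriers, glycolysis and cytosolic ribosome were -0.07, -0.01, 0.00 and -0.01. On day 3 against withdrawal 3 of 71 mitochondrial ribosomal genes, Cox14, Lonp1, Pcx and Pdhx rose, and Cycs did not pass. Cyp11b1, Fdx1 and Tspo of the steroidogenic list rose too, and Ldhb fell.

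**Figure D5:**
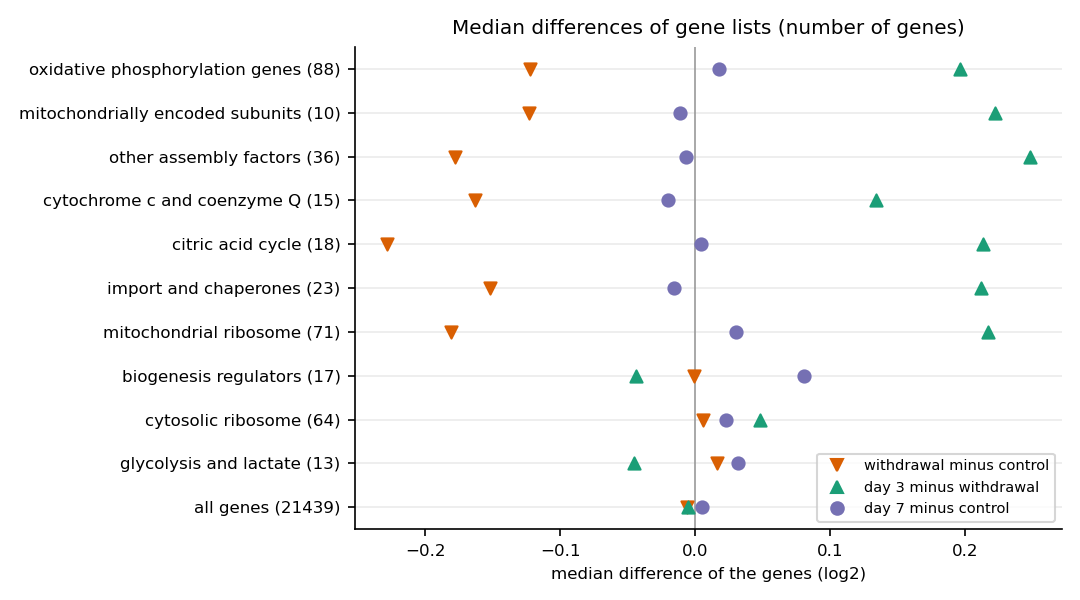
Median difference (log2) over the genes of each list for withdrawal minus control, day 3 minus withdrawal and day 7 minus control, with the number of genes in brackets. Of the lists plotted, the oxidative phosphorylation genes and the 6 below them (mitochondrially encoded subunits to mitochondrial ribosome) lie between -0.23 and -0.12 at withdrawal, and biogenesis regulators, cytosolic ribosome, glycolysis and all genes lie near 0.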

How the data were processed

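The 15 one-colour Affymetrix arrays were grouped by their titles into 4 groups. Per the submitters' processing notes the deposited log2 levels come from RMA, run with oligo; versions, filters and annotation were not given in the sources used here. No depth applies to arrays, and the number of arrays limits the precision. Titles call the arrays biological replicates, and 0 pairs were identical. Of 32736 probe sets 22399 carried 1 gene symbol in the platform annotation and were used; RefSeq matched 22261 of them and changed 0 symbols. Where a gene had several probe sets (807 genes), the one with the largest average level was taken, leaving 21439 genes. Probe sets with several symbols, 9 of which name genes of the families described, were left out, and 0 of them passed when all probe sets were tested, in any of the 6 comparisons. Against control, withdrawal means were higher for those naming Cox6c (0.03 and 0.08), for the dimmer one naming Ndufs6 (0.045) and for that naming Ndufs1 (0.26). They were lower for the rest.

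The test was limma's (version 3.58.1, under R 4.3.3, with statmod 1.5.0 for robust priors), using lmFit and eBayes on 1 model of 4 group means and 6 contrasts, and Benjamini-Hochberg adjustment over all genes per contrast at 0.05. No dim genes were filtered out. Differences are given with standard errors and levels with SDs; the standard error comes from the spread pooled over all groups. The code was tested on simulated data. The members and lists were chosen with earlier results of these data known. Genes named are those past the threshold in any comparison, the largest rise and fall per complex in withdrawal against control and day 3 against withdrawal, a core set and the isoform pairs, and up to 4 called genes of each other list; further members were named after their values were seen. Array replicate numbers did not pair the arrays (21 same-number pairs, correlations of deviations from -0.255 to 0.091). Alternatives were the trend and robust priors, array weights, a dim filter, per-array median centring, quantile normalization, other probe set rules, the 2 groups alone, a replicate block, other member sets, each array left out and, added after seeing the data, the 3 arrays high in Ucp1 and Cidea left out. Protein sequences were not used here.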

Additional observations from a re-analysis of the deposited data

Results flagged for a closer look

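In groups of 4 arrays the named genes and the 5 complex levels were searched for an array far from the other 3 (Dixon's test), and 7 of 132 groups had one, where chance gives about 1 in 20. Day 7 replicate 1 was such an array for Sdha, at 9.01 with the others at 8.87 to 8.89, for Atp5j, at 6.24 with the others at 6.27, and for Cox8c, at 1.25 with the others at 0.77, a gene at the floor. Day 3 replicate 1 was the low array for Atp5g3, at 9.19 against 9.24 to 9.25, and for Cox6a1, at 10.98 against 11.10 to 11.11. Control replicate 3 read 10.31 for Cox4i1, against 10.27 to 10.28. Day 3 replicate 3, which is high in Ucp1 and Cidea, had a complex I level of 0.11 with the others at 0.04 to 0.05.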

How the results depend on the processing

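The following counts are oxidative phosphorylation genes past the threshold, in withdrawal against control, day 3 against withdrawal and day 7 against withdrawal, which were 3, 5 and 2. A dim filter gave 5, 9 and 6, an intensity trend 5, 11 and 7, and per-array centring 12, 8 and 6. Quantile normalization gave 5 in the first. Fitting the 2 groups alone gave 0 on day 3 and 1 on day 7. That 1 was another gene, as Ndufs8 and Uqcrfs1 both missed the threshold on day 7 in this fit. Without the 3 arrays high in Ucp1 and Cidea the counts were 0, 1 and 1. Leaving out 1 array gave 1 to 3, 1 to 6 and 1 to 3. Replicate numbers did not pair the arrays, and a replicate block gave 2, 2 and 0 and a day 7 median of 0.119 for complex V. Against control and between the recovery times the count was 0 in every alternative.

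Complex medians kept their sign against withdrawal in every alternative, except complex IV in withdrawal against control, which ran from -0.093 to 0.018 with 1 array left out. Centring gave -0.216, -0.286, -0.274, -0.134 and -0.217 for complexes I to V in withdrawal against control. On day 3 against withdrawal it gave 0.236 for I, 0.338 for III, 0.183 for IV and 0.24 for V, and on day 7 0.215, 0.302, 0.263, 0.193 and 0.175 for I to V. Against control it gave 0.007 for I, 0.037 for III, 0.041 for IV and -0.012 for V on day 3, and -0.024 for I, -0.011 for III and 0.007 for V on day 7, and -0.022 for I between day 7 and day 3. Quantile normalization gave -0.115 for III in withdrawal against control, 0.127, 0.232 and 0.118 for I, III and V on day 3 and 0.094, 0.142 and 0.074 on day 7. Averaged probe sets gave 0.023 for V on day 7 against control. Without the 3 arrays complexes IV and V stood at -0.093 and -0.121 in withdrawal against control, IV at 0.169 on day 3, and V against control at 0.019 on day 3 and 0.015 on day 7.

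With 1 array left out, complex V ran from -0.13 to -0.088 in withdrawal against control, from 0.148 to 0.208 on day 3, from 0.085 to 0.132 on day 7 and from 0.017 to 0.05 on day 7 against control. Complex IV ran from 0.125 to 0.169 on day 3 and from 0.06 to 0.141 on day 7, complex II from 0.172 to 0.25 on day 7. Between day 7 and day 3 complex I ran from -0.08 to -0.04 and complex II from -0.042 to 0.029. Without control replicate 2 the medians against control turned to -0.011 for II on day 3 and to -0.004 for I and -0.032 for II on day 7. Where no construction shows it, the cause was not tested. The number of arrays and the 3 withdrawal arrays shared by 3 comparisons limit the precision, and a fall of a gene at the floor could hardly be seen.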
